A study of Zea mays with 6 samples.

Results

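The 2 independent experiments on the deep-sown maize mesocotyl were compared with each other. The mesocotyl of a grass seedling is a stem segment that elongates in darkness and lifts the shoot towards the soil surface. Experiment 2 is the 3 arrays labelled biological rep2, made from mesocotyls of untreated control plants, of plants given the gibberellin GA3 and of plants given UCZ, which the series calls a gibberellin biosynthesis inhibitor. Experiment 1 is the 3 arrays labelled biological rep1, from the same 3 treatments. All 6 arrays of the series were used, and each array of experiment 2 was paired with the array of experiment 1 that had the same treatment. Every plant belonged to the inbred line 3681-4, was sown at a depth of 20 cm, was kept in the dark and was harvested 10 days after sowing. The labels do not say how many plants each array stands for, and the sources used here give no doses.

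Mesocotyl growth is driven by cell elongation, in which expansins loosen the wall, cellulose synthases lay down new wall material, and aquaporins let water into the enlarging vacuole and across the cell membrane. Gibberellin promotes this elongation. A seedling without light depends on reserves of the grain, and glutamine synthetases and asparagine synthetase put ammonium released from those reserves into transportable amides.

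Values are array signals, compared as log2(signal + 16), so differences of dim probe sets are understated. Each difference is experiment 2 minus experiment 1. The array table held 17555 probe sets for maize transcripts, and the brightest 60%, 10533 probe sets, were tested. Of these, 928 (8.81%) differed between the experiments (limma with treatment as a block, two-sided, Benjamini-Hochberg adjusted p under 0.05). Higher signals in experiment 2 accounted for 393 of them (3.73% of those tested) and lower signals for 535 (5.08%). The direction was the same in all 3 treatments for 926 of the 928, which the call nearly requires, and for 4833 (45.9%) of all probe sets tested. Most of these differences were small: the median log2 difference was 0.48 among the higher and −0.43 among the lower, and the mean difference reached 1.5-fold for 141 higher and 80 lower probe sets.

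The 3 pairs are few. An exact sign-flip test over 3 pairs cannot give a two-sided p below 0.25, so the calls rest on the variance shared across probe sets, with 2 residual and 11.7 prior degrees of freedom. Leaving out the GA3 pair left 494 calls, leaving out the UCZ pair left 467 and leaving out the control pair gave 1136. With 1 array for each treatment in each experiment, a difference in how the experiments responded to a treatment could not be tested. Growth, harvest, RNA extraction, labelling and hybridization all belong to the experiment and cannot be told apart.

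The array measures differed between the experiments as well. The actin 3′/5′ signal ratio, which rises when RNA is degraded or labelled incompletely, was 2.76, 3.4 and 3.11 in the control, GA3 and UCZ arrays of experiment 2, against 3.57, 4.64 and 4.14 in experiment 1. The ratio was lower in experiment 2 in all 3 pairs for actin, GAPDH, ubiquitin and EF-1a, while for cyclophilin the pairs disagreed in sign (exact sign-flip p = 0.25 for each of the first 4, the smallest possible, and 0.75 for cyclophilin). The bacterial poly-A controls, which are added before labelling, were dimmer in experiment 2 by a mean log2 of 0.4 (SD 0.235, n = 3 pairs), and 11 of their 12 probe sets were lower in every pair. The hybridization controls, which are added after labelling, were brighter by 0.43 (SD 0.189), and 7 of their 9 probe sets were higher in every pair. Scaling the arrays to the poly-A controls moved the median log2 difference of all probe sets to 0.34, and scaling to the hybridization controls moved it to −0.45, against −0.039 as deposited. The share of calls that were higher in experiment 2 became 99.3% under the first and 1.37% under the second, against 42.3% as deposited. Every difference below is on the scaling of the deposited values, and the part of RNA integrity and labelling in them was not tested.

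**Figure D1:**
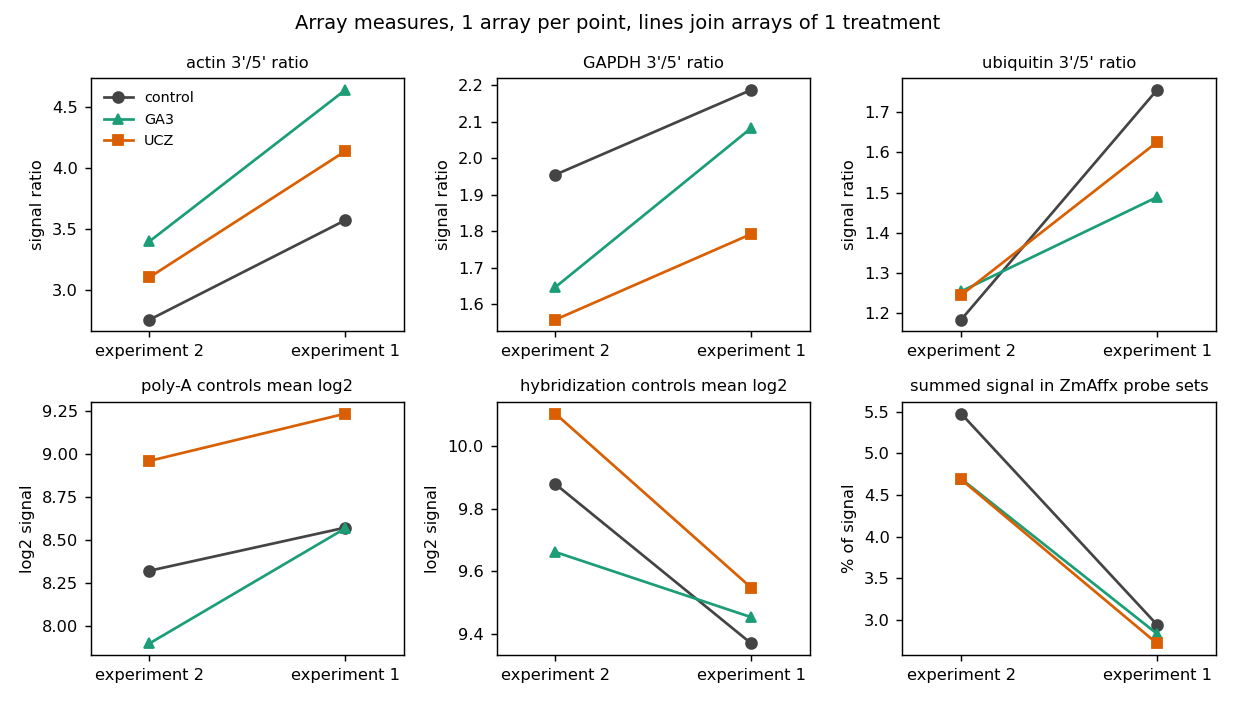
Array measures in experiment 2 (left) and experiment 1 (right) of each panel; each point is 1 array, lines join the arrays of 1 treatment, and the y axes give a signal ratio, a mean log2 signal or a percent of the summed signal and do not start at 0. The actin ratio spans 2.76 to 3.4 in experiment 2 and 3.57 to 4.64 in experiment 1, and the poly-A and hybridization controls move in opposite directions.

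The tissue markers differed little. Summed signals of 12 genes of leaf photosynthetic cells spanned 50980 to 66921 in experiment 2 and 48082 to 63126 in experiment 1, and 1 of the 12, psad1, was called higher. Among 8 genes of meristem and young leaf (6 tested), hon101 was called higher. The sums spanned 8453 to 8995 in experiment 2 and 8499 to 8798 in experiment 1. Of the 8995 on the control array of experiment 2, the histone genes his1a, hon101 and his2b5 gave 3908, 2319 and 2018. No tested gene was called among the 2 root genes (1 tested), the 5 pollen genes (2 tested) or the 4 genes of secondary-wall xylem (4 tested). The root sums spanned 702 to 919 in experiment 2 and 817 to 913 in experiment 1, the pollen sums 4613 to 5498 in experiment 2 and 4786 to 5468 in experiment 1, and the xylem sums 1847 to 5201 in experiment 2 and 1979 to 4742 in experiment 1. On the control array of experiment 2, pht1 alone gave 902 of the root sum of 919, and PRO4 alone gave 4745 of the pollen sum of 5274. The meristem, root and pollen sums therefore say little about the other genes of those lists. Of 12 kernel genes, 7 were under a signal of 16 on all arrays, the 5 listed alpha-zeins (storage proteins of the endosperm) among them. The kernel sums, 2108 to 3847 in experiment 2 and 2393 to 4025 in experiment 1, consisted mostly of vpp1, a vacuolar proton pump. In whole-tissue samples, a smaller share of a cell type and less RNA per cell cannot be told apart.

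The largest differences lay in a small set of bright transcripts. Signals were at least 2-fold higher in experiment 2 in all 3 treatments for 83 probe sets (0.788% of those tested) and at least 2-fold lower in all 3 for 5 (0.0475%), together 88 (0.835%). Over all probe sets tested, 5.16% had every array of experiment 2 above every array of experiment 1, and 8.03% had every array of experiment 2 below. For the 83 this nearly follows from how they were chosen. The median log2 difference of the 83 was 2.63, with a range of 1.2 to 7.05, and 15 of them were 16-fold higher or more. On the control, GA3 and UCZ arrays the median signal of the 83 was 3213, 1711 and 1795 in experiment 2, against 223.6, 129.4 and 164.5 in experiment 1. The signal reached 1000 for 61, 50 and 50 of them in experiment 2, and for 13, 11 and 9 in experiment 1.

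**Figure D2:**
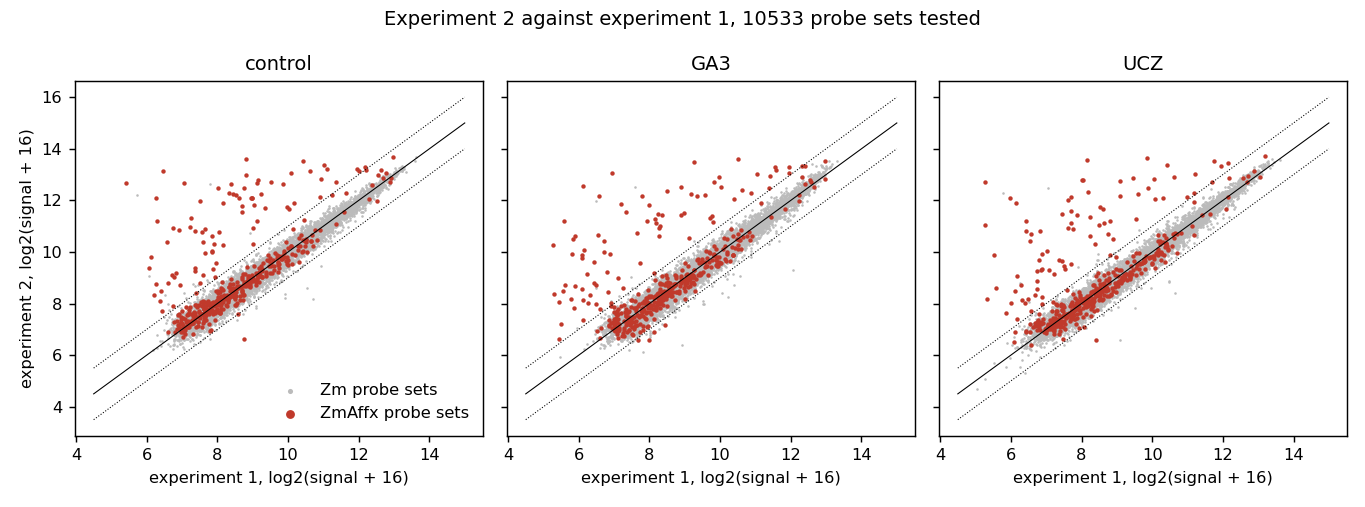
Signal in experiment 2 (y axis) against experiment 1 (x axis), both as log2(signal + 16), for the 10533 probe sets tested, in 1 panel per treatment; the solid line marks equal signal and the dotted lines a 2-fold difference. A cloud of red points, the ZmAffx probe sets, lies far above the upper dotted line in all 3 panels, and few points lie below the lower one.

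The extreme case was probe set ZmAffx.1376.1.S1_s_at. Its signal was 6586, 6004 and 6709 in control, GA3 and UCZ of experiment 2, against 26.7, 52.9 and 22.9 in experiment 1. That is a log2 difference of 7.05 (SE 0.15, adjusted p = 2.96e-13). Probe set ZmAffx.1221.1.S1_at had 8974, 8453 and 4349 in experiment 2, against 72.2, 107.5 and 47.1 in experiment 1 (log2 6.29, SE 0.115, adjusted p = 6.38e-14). Both transcripts were thus among the bright signals of experiment 2 under every treatment. In experiment 1 both lay below the median signal of each array (201, 204 and 191 in control, GA3 and UCZ). Neither has a gene in the annotation used here.

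Of the 83 probe sets, 78 carry identifiers of the ZmAffx series and 5 identifiers of the Zm series. The ZmAffx series makes up 439 of the probe sets tested. Of these, 17.8% were at least 2-fold higher in all 3 pairs, against 0.0495% of the 10094 tested probe sets of the Zm series. A probe set can pass the brightness filter through experiment 2 alone, which raises such shares. Counting untested probe sets too, the shares were 4.45% of 2179 and 0.052% of 15376. Within the ZmAffx series, 67 of the 78 have the letter S in the identifier (40.9% of the 164 tested), and 11 have the letter A (4% of the 275 tested). With untested probe sets counted, the shares were 7.12% of the 1194 with S and 1.22% of the 985 with A. The numbers in the identifiers were examined after the values had been seen. The widest gap between successive numbers, 52, lies between 1224 and 1276, and the highest number is 1544. From number 1276 upwards, where all 225 probe sets carry the letter S, 62 of the 72 tested were at least 2-fold higher in all 3 pairs. The median log2 difference was 0.48 over all 225 and 2.53 over the 72 tested, some of which were bright enough to be tested through experiment 2 alone. Up to number 1224 this held for 16 of the 367 tested, with a median of 0.011 over all 1954 probe sets and −0.046 over those tested. Counting untested probe sets too, it held for 76 of the 225 above the gap (33.8%) and 21 of the 1954 below it (1.07%).

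**Figure D3:**
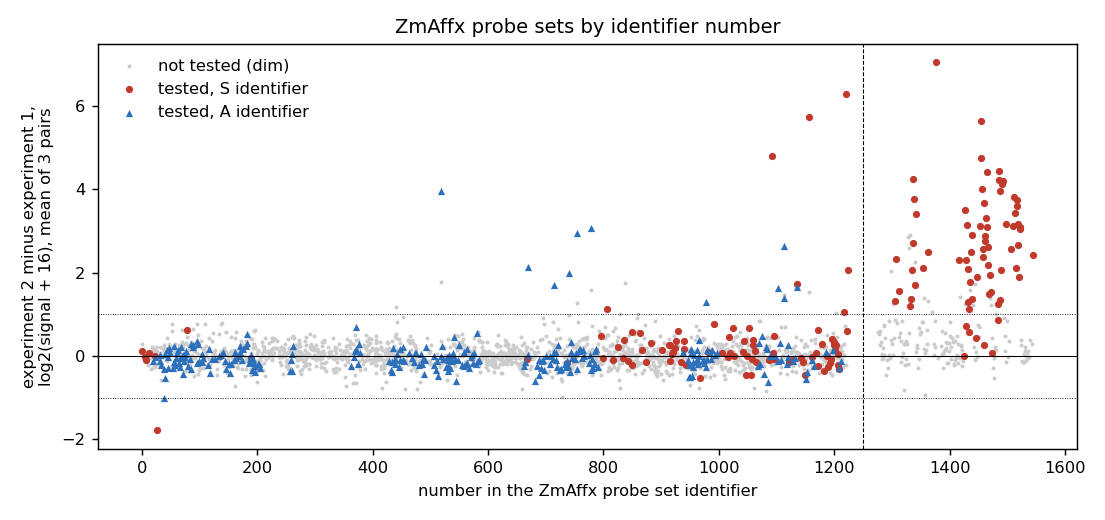
Mean of the 3 pair differences (experiment 2 minus experiment 1, log2(signal + 16)) of every ZmAffx probe set, against the number in its identifier; red circles and blue triangles are tested probe sets with the letter S or A, grey points were too dim to be tested, and the dashed line stands in the gap between 1224 and 1276. To the right of it the median is 0.48 over all probe sets and 2.53 over those tested, and to the left it is 0.011 and −0.046.

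The stretch from number 1276 upwards was not uniform. Among its 72 tested probe sets, 15 averaged a signal of at least 1000 in both experiments, and their differences ran from −0.0074 to 3.32 with a median of 1.3. For 5 of the 72 the mean difference was under 1.5-fold. The ZmAffx series as a whole held 5.48%, 4.7% and 4.69% of the summed signal of the control, GA3 and UCZ arrays in experiment 2, against 2.94%, 2.83% and 2.72% in experiment 1. Only 23 ZmAffx probe sets of the array have a gene in the annotation, and the 83 include 1 annotated probe set, of LOC541944, in the Zm series. Its signal was 460, 507 and 660.4 in control, GA3 and UCZ of experiment 2, against 193.2, 162 and 224.7 in experiment 1 (log2 1.41, SE 0.113, adjusted p = 9.08e-07), and no name is given for it here.

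For most of the 83, the GA3 and UCZ arrays were below the control array in both experiments. The same counts over all probe sets tested are not given here, so the pattern cannot be called particular to the 83. In experiment 2, the GA3 array was below the control array for 77 of them and the UCZ array for 66, with median log2 differences of −0.54 and −0.47. In experiment 1 this held for 65 and 73, with medians of −0.42 and −0.52. Within an experiment both differences share the control array, so a bright or dim control array enters both. The treatment F test with the experiment as a block called 62 of the 83 (74.7%), against 38.3% of all probe sets tested.

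The 5 probe sets at least 2-fold lower in all 3 pairs had no annotated gene. Probe set Zm.4795.2.A1_x_at had 270.3, 290 and 321.4 in control, GA3 and UCZ of experiment 2, against 1669, 1187 and 1576 in experiment 1 (log2 −2.26, SE 0.112, adjusted p = 3.43e-09). Probe set Zm.10850.1.S1_at had 278.5, 68.9 and 79.9 in experiment 2, against 954.2, 468.3 and 524.2 in experiment 1 (log2 −2.24, SE 0.146, adjusted p = 8.08e-08). In both, every array of experiment 2 was below every array of experiment 1.

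The 88 probe sets were chosen for differing between the experiments, so leaving them out lowers the share of the experiment by construction. Over all probe sets tested, the experiment accounted for 33.3% of the sum of squares, the treatment for 58.9% and the rest for 7.81%. Without the 88, the shares were 15.2%, 75% and 9.83%. Across probe sets, which are not independent replicates, the pair differences of the remaining 10445 correlated at 0.302 between the control and GA3 pairs, 0.393 between the control and UCZ pairs and 0.504 between the GA3 and UCZ pairs.

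Annotated genes formed a minority: 966 of the probe sets tested had 1 gene, and 85 of them (8.8%) were called, 34 higher and 51 lower. None of the genes named below differed 2-fold on average. Taking the brightest probe set of each of 816 annotated genes, 3.06% were called higher and 4.9% lower, with a median log2 difference of −0.021. Of the 816, 445 lay below 0 and 371 above. Counts of the gene groups use the brightest probe set of each gene and are to be read against these shares and counts.

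Nitrogen assimilation held the gene with the largest named fall. gln5, a glutamine synthetase, had signals of 1186, 1001 and 984.9 in control, GA3 and UCZ of experiment 2, against 2064, 1455 and 1754 in experiment 1. It was 1.64-fold lower in experiment 2 (log2 −0.72, SE 0.0906, adjusted p = 0.000178), and the arrays of the 2 experiments did not overlap. GLN6, another glutamine synthetase, had 396.1, 455.1 and 992.9 in experiment 2, against 575.8, 682.5 and 1462 in experiment 1. Its 3 pair differences lay between −0.57 and −0.52 (adjusted p = 0.0021), although the arrays of the experiments overlapped, with the UCZ array high in both. The related gene gln3 was also lower with a log2 difference of −0.42 (adjusted p = 0.0352), while gln1 (−0.044) and gln2 (−0.27) did not pass. In all, 3 of 8 genes tested were lower, none was higher, and the median was −0.21. For asn1, an asparagine synthetase, a dimmer probe set was lower (log2 −0.63, adjusted p = 0.00753) while its brightest probe set, at −0.021, did not pass.

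FDX6 is a ferredoxin, which carries electrons in the plastid. It had 1164, 958.3 and 1089 in control, GA3 and UCZ of experiment 2, against 1658, 1847 and 1666 in experiment 1. It was 1.6-fold lower (log2 −0.68, SE 0.0972, adjusted p = 0.000556), without overlap. FDX6 belongs to the photosynthesis list, where 17 of 19 genes lay above 0 and the median was 0.095. The ferredoxin genes fdx2 (0.17) and fdx3 (0.044) did not pass. Glutathione S-transferases join glutathione to toxic compounds. Of 24 tested, 4 were lower, none was higher, and 18 lay below 0, with a median of −0.25, or 0.13 when scaled to the poly-A controls, which is still below that scaling's median of 0.34. The member with the largest difference, gst41, averaged 249 ± 21.4 in experiment 2 and 379 ± 22.2 in experiment 1. This SD is over the 3 treatments, 1 array each, while the adjusted p of 0.00703 comes from the fit with treatment as a block. The other 3 were gst14 (log2 −0.48), gst30 (−0.41) and gst19 (−0.37). For gst14 the control pair hardly differed (−0.074), while the GA3 pair differed by −0.82 and the UCZ pair by −0.56.

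Of 23 aquaporins tested, 4 were lower, none was higher, and the median was −0.062. The silicon and water channel Lsi6 had 655.1, 357.7 and 171.5 in control, GA3 and UCZ of experiment 2, against 854.6, 553.1 and 302.9 in experiment 1 (log2 −0.58, SE 0.108, adjusted p = 0.0047). The tonoplast aquaporins tip2b (−0.53, adjusted p = 0.00823) and por2 (−0.57, adjusted p = 0.0276) were lower as well, and so was nip2b (−0.28, adjusted p = 0.0486). The brightest probe sets of the plasma membrane aquaporins of the pip series did not pass, with differences from −0.062 (pip2d) to 0.21 (pip1e), while a dimmer probe set for pip2c was lower (−0.35, adjusted p = 0.0172).

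Few wall genes passed. expA4, an expansin, had the largest named rise: its signal was 250.8, 368.3 and 170.8 in control, GA3 and UCZ of experiment 2, against 175.8, 181.4 and 78.2 in experiment 1. It was 1.75-fold higher (log2 0.81, SE 0.133, adjusted p = 0.00186), but the experiments overlapped, and a second probe set for expA4 gave −0.14 and did not pass. The other 8 of 9 expansins did not pass, and the list median was −0.12. CesA-9, a cellulose synthase, averaged 2392 ± 68 in experiment 2 and 1943 ± 39 in experiment 1 (SD over the 3 treatments, 1 array each). Its adjusted p in the fit with treatment as a block was 0.036. The other 13 of 14 genes for cellulose synthesis and secondary walls did not pass. HRGP, a hydroxyproline-rich wall glycoprotein, was higher on 2 probe sets, with log2 differences of 0.34 and 0.58. ccr2, a cinnamoyl-CoA reductase of lignin synthesis, was lower (−0.47, adjusted p = 0.0272), as 1 of 5 lignin and phenylpropanoid genes. None of the 14 tubulin and cytoskeleton genes passed.

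**Figure D4:**
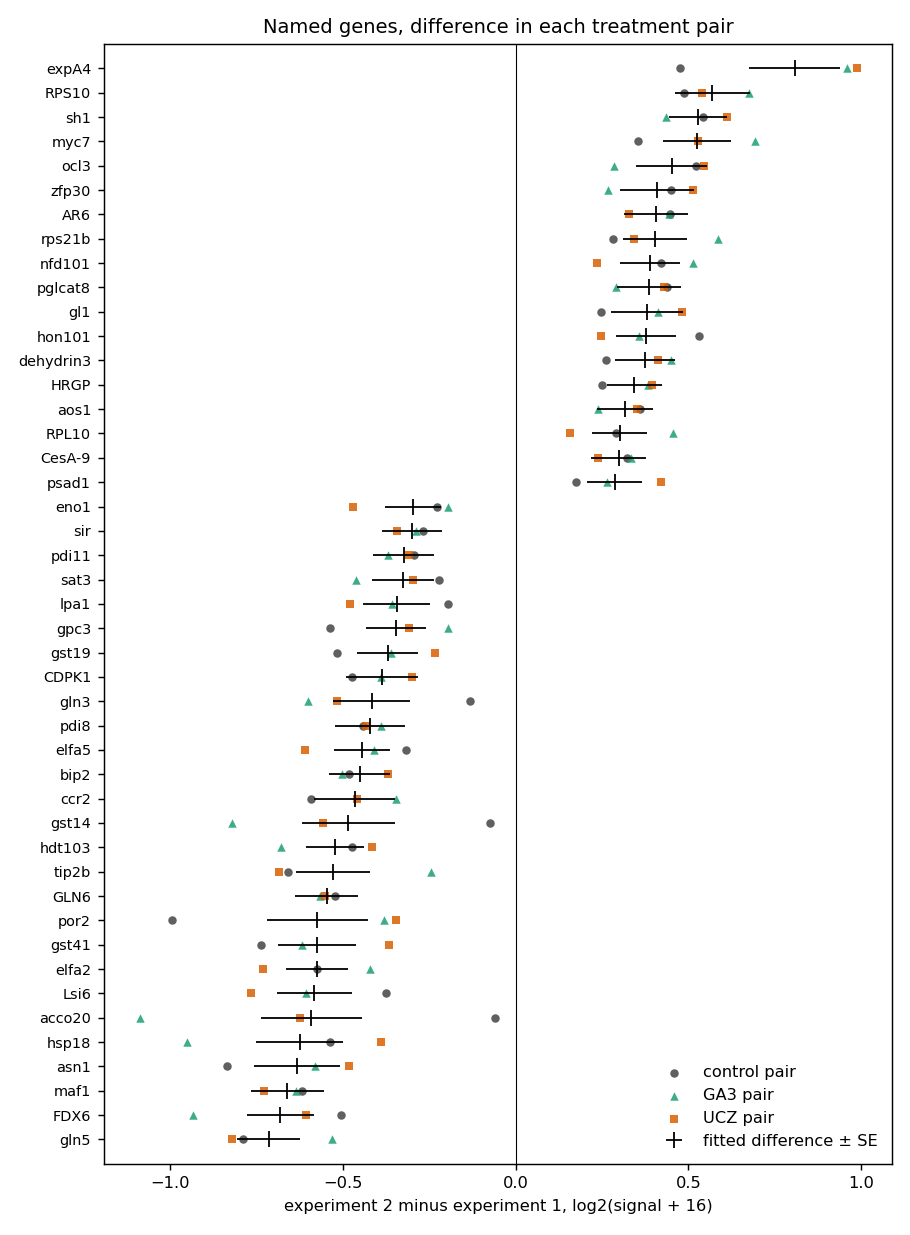
Difference between experiment 2 and experiment 1 (x axis, log2(signal + 16)) of the genes chosen by the naming rule, 1 row per gene; circles, triangles and squares are the control, GA3 and UCZ pairs, and the black bar is the fitted difference with its SE. Every gene has its 3 points on the same side of 0; acco20 and gst14 have a control pair close to it.

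Of 19 cytosolic ribosomal proteins, 4 were higher, none was lower, and 15 lay above 0, with a median of 0.088. After quantile normalization the median was −0.00034, and when scaled to the hybridization controls it was −0.33, which is above that scaling's median of −0.45 over all probe sets. RPS10 had 275.3, 413.7 and 375.5 in control, GA3 and UCZ of experiment 2, against 191.6, 252.8 and 253.1 in experiment 1 (log2 0.57, SE 0.109, adjusted p = 0.00576), without overlap. The others were rps21b (0.4), RPL10 (0.3) and arpp2b (0.27). A second probe set for RPL10 gave 0.03 and did not pass. Of 12 translation factors, 1 was lower, none was higher, and 8 lay above 0, with a median of 0.017. The lower one was elfa5, an elongation factor 1-alpha, which brings aminoacyl-tRNA to the ribosome (log2 −0.45, adjusted p = 0.00434). A dimmer probe set of elfa2 had 1199, 1200.2 and 1105 in experiment 2, against 1796, 1613 and 1847 in experiment 1 (log2 −0.58, adjusted p = 0.00122). A dimmer probe set of elfa3 was lower as well (log2 −0.41, adjusted p = 0.0107). The elfa genes belong to a family of near-identical copies. The brightest elfa2 probe set, at 0.05, and the brightest elfa3 probe set, at −0.066, did not pass, so these signals may not separate the copies.

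Of 53 tested genes of chromatin and DNA methylation, a list chosen after values had been seen, 2 were higher (3.77%) and 1 was lower (1.89%), shares close to or below those of all annotated genes, and the median was 0.026. hdt103, a plant-type histone deacetylase, had 2101, 2350 and 2569 in control, GA3 and UCZ of experiment 2, against 2923, 3774 and 3435 in experiment 1 (log2 −0.52, SE 0.0831, adjusted p = 0.00141), without overlap, and 2 further probe sets were lower as well (−0.41 and −0.44). The linker histone gene hon101 averaged 2020 ± 297 in experiment 2 and 1541 ± 79.6 in experiment 1 (SD over the 3 treatments, 1 array each). Its adjusted p in the fit with treatment as a block was 0.0178. nfd101, a gene of a chromatin-associated protein family, was higher too (log2 0.39, adjusted p = 0.0155).

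Of 18 genes for protein folding in the endoplasmic reticulum, another list chosen after values had been seen, 3 were lower and none was higher, with a median of −0.043. bip2, a chaperone of the endoplasmic reticulum, had 961.4, 990.9 and 889.1 in control, GA3 and UCZ of experiment 2, against 1351, 1410 and 1154 in experiment 1 (log2 −0.45, adjusted p = 0.00608). The protein disulfide isomerases pdi8 (−0.42) and pdi11 (−0.32) were lower, while a second probe set for pdi11 gave −0.21 and did not pass. Among 10 heat shock proteins and chaperones, 1 was lower, the small heat shock protein hsp18 (−0.63, adjusted p = 0.00885), and 9 lay below 0. In sulfur assimilation, also a list chosen that way, sat3, a serine acetyltransferase (−0.33), and sir, a sulfite reductase (−0.3), were lower among 9 genes. Other probe sets for sir gave −0.16 and −0.11 and did not pass.

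Further named rises were those of sh1, a sucrose synthase, the transcription factor gene myc7, the homeobox gene ocl3 of outer cell layers, zfp30, AR6, pglcat8 and the cuticle wax gene gl1. sh1 had 2090, 2364 and 1773 in control, GA3 and UCZ of experiment 2, against 1431, 1745 and 1155 in experiment 1 (log2 0.53, SE 0.0836, adjusted p = 0.00136), while a second probe set gave 0.12 and did not pass. myc7 had 882.2, 700 and 755.5 in experiment 2, against 687, 426.6 and 519 in experiment 1 (log2 0.53, adjusted p = 0.00555). The remaining 5 were higher by log2 0.38 to 0.45. Other probe sets for zfp30 (0.06), pglcat8 (0.26 and 0.21) and gl1 (0.36) did not pass. None of 14 genes of sucrose and starch passed when each was represented by its brightest probe set. dehydrin3, a protein of drying tissue (0.37), aos1, an allene oxide synthase of jasmonate synthesis (0.32), and psad1, a photosystem I subunit (0.29), were each the only higher member among 7, 10 and 19 genes of their lists. The photosynthesis list, which holds psad1, also had 1 lower gene, FDX6. Other probe sets for dehydrin3 gave 0.11 and 0.19 and did not pass.

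Further named falls were those of maf1, acco20, an ACC oxidase that makes ethylene, the glycolytic genes gpc3 (−0.35) and eno1 (−0.3), lpa1, a transporter gene also listed as MRP4 (−0.34), and the kinase gene CDPK1 (−0.39). A second probe set for eno1 gave −0.21 and did not pass. maf1 averaged 243.7 ± 3.74 in experiment 2 and 395.1 ± 22.4 in experiment 1 (SD over the 3 treatments, 1 array each). Its log2 difference in the fit with treatment as a block was −0.66 (adjusted p = 0.00144). acco20 had 753.9, 518.3 and 390.2 in control, GA3 and UCZ of experiment 2, against 787, 1121 and 610.6 in experiment 1. Its control pair differed by −0.061, its GA3 pair by −1.09 and its UCZ pair by −0.63 (adjusted p = 0.0242), and a difference between pairs could not be tested.

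**Figure D5:**
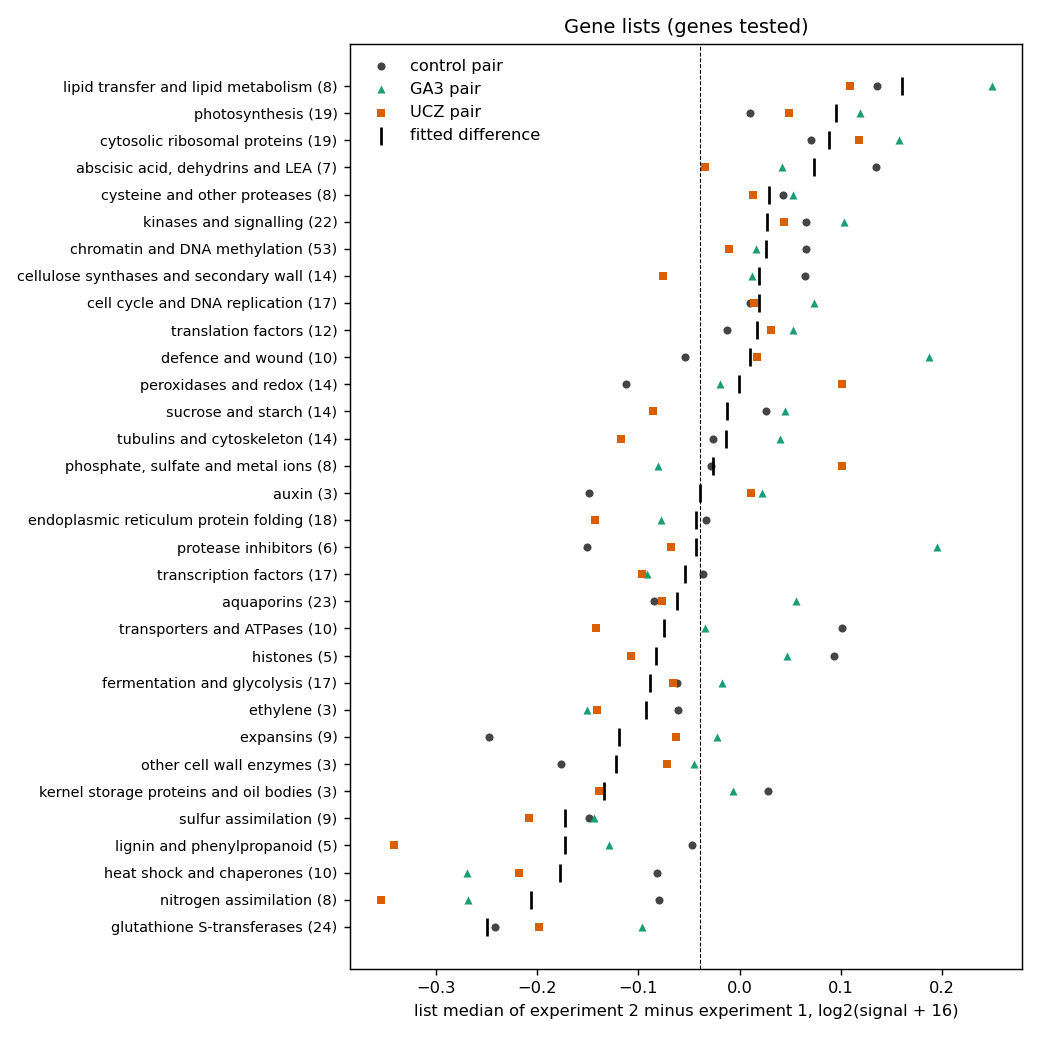
Median difference between experiment 2 and experiment 1 (x axis, log2(signal + 16)) of each gene list with 3 or more genes tested (number in brackets), for the control, GA3 and UCZ pairs and for the fitted difference; the dashed line is the median of all probe sets, −0.039. The glutathione S-transferases have the lowest fitted median, −0.25.

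No gene passed on its brightest probe set in the lists of cell cycle and DNA replication (17 genes), peroxidases and redox (14), transcription factors (17), proteases (8), protease inhibitors (6), auxin (3) and kernel storage proteins (3). The transcription factor list was built from symbol patterns and does not hold myc7 or ocl3, which were called higher. A dimmer probe set of the protease gene mir3 was higher (0.37, adjusted p = 0.0215). In the remaining lists, a single called gene or 2 stood among 3 to 22 tested.

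The treatment test and the experiment test often called the same probe sets. Of the 393 higher probe sets, 209 (53.2%) were also called by the treatment F test, and of the 535 lower ones, 262 (49%), against 38.3% of all probe sets tested. Among the genes above, gl1, GLN6, hsp18 and Lsi6 differed both between treatments and between experiments, while FDX6, maf1, gst41, elfa5 and CesA-9 had treatment F tests with adjusted p of 0.784 to 0.94. When each pair was left out in turn, 15 of the 45 named genes passed every time: expA4, RPS10, sh1, myc7, gln5, FDX6, maf1, asn1, Lsi6, elfa2, gst41, GLN6, tip2b, hdt103 and bip2. The other 30 lost the call without at least 1 pair.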

How the data were processed

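The deposited values are linear signal intensities of each probe set on each array, which the authors made with GCOS and MAS5 per the submitters' processing notes (no versions given). RNA was TRIzol-extracted, and biotin-labelled cRNA was hybridized, per the labels. The arrays had been brought to a common trimmed mean, and their number limits the precision. Replicate numbers were taken to pair the arrays because the design text names independent experiments. The 113 AFFX control and 66 RPTR reporter probe sets were left out, and log2(signal + 16) of the brightest 60% was fitted on all 6 arrays with experiment and treatment as terms (limma 3.58.1 in R 4.3.3, lmFit, eBayes with trend). P-values were adjusted by Benjamini-Hochberg over all 10533 probe sets. They rest on the spread between the pairs, drawn strongly towards the variance shared across probe sets.

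Gene names came from the platform annotation: 1452 probe sets had 1 gene, 1 had several and 16102 had none. Of 1108 genes, 1060 were in the RefSeq gene table, which gave names alone (its assembly is Zm-B73-REFERENCE-NAM-5.0). The genes named are those with the 12 highest and 12 lowest differences among called probe sets of 1 named gene with 1 direction in all pairs (the brightest such probe set per gene), and the 3 called members with the smallest p of each list with 3 or more genes tested. Members and lists were chosen with earlier results of these data known. Wrong matches were removed from the 34 lists, and missed genes added, by gene name, 3 lists were added after values were seen, and 5 lists had under 3 genes tested. Further list members, LOC541944 and the probe sets without a gene were named after their values were seen. On simulated data of 10533 probe sets with noise of the fitted spread, 94% of 1.5-fold and 100% of 2- and 4-fold differences between the experiments were recovered, and 3.92% of 204 calls were false. The simulated noise was independent between probe sets and arrays. It held no difference between experiments in scaling, RNA quality or response to treatment, so these rates do not carry over to the real arrays. Figures were drawn with matplotlib 3.10.9.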

Additional observations from a re-analysis of the deposited data

Results flagged for a closer look

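Probe set Zm.16484.1.A1_at, which has no annotated gene here, was at least 2-fold higher in experiment 2 in one treatment and at least 2-fold lower in another. It differed by a log2 of 1.1 in the control pair and 0.62 in the UCZ pair, and by −1.52 in the GA3 pair. Its signal was 439.8, 237.2 and 606.7 in control, GA3 and UCZ of experiment 2, against 196.5, 709.3 and 389.8 in experiment 1. It was the only probe set of the 10533 tested with that pattern, and the difference between treatments was not tested.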

How the results depend on the processing

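The call of 928 probe sets moved with the scaling and the spread. It became 2147 when scaled to the poly-A controls and, chosen after the data were seen, 7315 when scaled to the hybridization controls. It became 394 without the filter on dim probe sets, 75 without the treatment block, and 467 to 1136 with 1 pair left out. The other alternatives (median centring, quantile normalization, 1 or 64 added, the brightest 40%, a prior without trend or robust, and, chosen after the data were seen, Zm-series probe sets alone) gave 680 to 961. The 88 probe sets at least 2-fold apart in all pairs became 9 when only the Zm series was used, by construction, since 79 of them are ZmAffx probe sets. They numbered 62 to 129 under the other alternatives that bear on them. These include a looser cutoff of 1.5-fold in all 3 pairs, which gave 101 higher and 28 lower probe sets. Probe sets called by both the experiment test and the treatment F test, 471, became 1771 with poly-A scaling, 2265 with hybridization control scaling, 181 without the filter, and 131 to 459 with 1 pair left out. The treatment F test with the experiment number as a replicate block called 4038, and without the replicate block 1670, of which 68 were among the 928. Scaling to the hybridization controls reversed AR6 (−0.0088), rps21b (−0.015), nfd101 (−0.031), pglcat8 (−0.0302), gl1 (−0.024), hon101 (−0.043), CesA-9 (−0.12), HRGP (−0.079), RPL10 (−0.12), psad1 (−0.14), dehydrin3 (−0.046) and aos1 (−0.105). Poly-A scaling reversed gst19 (0.023), gpc3 (0.048), eno1 (0.099), lpa1 (0.045), pdi11 (0.068), sat3 (0.066) and sir (0.091). No other alternative reversed a named gene, but many lost the call: all 45 without the treatment block, 28 without the filter, 16 with the prior without trend, 10 after quantile normalization, 8 after median centring, 7 with Zm-series probe sets alone, and 10 to 24 with 1 pair left out. Apart from the scaling itself and the smaller sets, the cause was not tested.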
